A study of Mus musculus with 2 samples.

Results

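The nephrogenic mesenchyme regulators described here are 8 genes for transcriptional regulators, *Six2*, *Cited1*, *Eya1*, *Osr1*, *Pax2*, *Sall1*, *Wt1* and *Meox1*. They were taken by gene name, as all probes on the arrays that carry one of these names. This gave 12 probes out of 39429 probes with 29924 gene names. All 8 genes were measured in ureter explants of NMRI wildtype mouse embryos at E11.5, cultured over 18 h in a medium with 10 µM IWP-2 or, as control, with the solvent DMSO. IWP-2 inhibits PORCN, the enzyme that acylates WNT ligands, without which they are not secreted. Each of 2 arrays compared 1 pool of treated ureters with 1 pool of control ureters, and each array had its own pools of explants. The p-values below thus rest on 2 pairs of pools. For each gene, limma combines the spread between these pairs (1 residual degree of freedom) with a prior drawn from all genes (5.52 degrees of freedom). Most of the weight therefore lies on the spread of other genes. The sex of the embryos was not determined, and the study's methods state that the ureters were cut at the junction with the kidney and above the bladder. AlexaFluor647 marked the treated pool of replicate 1 and the control pool of replicate 2, and AlexaFluor555 the pool hybridised with it.

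Nephrogenic mesenchyme is the tissue at the tip of the ureteric bud that gives rise to the nephrons of the kidney. A core of regulators, with SIX2 and CITED1 in the self-renewing progenitors and OSR1, EYA1, WT1, SALL1 and PAX2 in their formation and maintenance, keeps this population alive, while WNT signals from the bud first support it and then trigger its conversion into epithelium. The ureter itself forms from the stalk of the bud and a neighbouring mesenchyme that makes smooth muscle. Several of the 8 genes are also active outside of nephron progenitors, such as *Pax2* in the epithelium of the bud, *Wt1* in mesothelium and *Meox1* in somites. The comparison asks how the RNA of these regulators differed after a short block of WNT secretion, and for which of them both arrays gave the same direction.

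Of the 12 probes, 10 were kept for the test because they were well above background in the treated or in the control channel of both arrays. All 8 genes had a kept probe. Of the 3 *Six2* probes and of the 3 *Pax2* probes, 2 each were kept. The *Pax2* pair below is shown because it holds the probe that stands for the gene in all results and the one that was left out. The sequences are those of the array files on mouse build mm9, plus strand, and differ in their content of G and C (55% and 70%).
A_55_P2075127 (*Pax2*, used, chr19:44909895-44909954): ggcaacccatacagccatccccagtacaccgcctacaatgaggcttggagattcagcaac
A_55_P2148518 (*Pax2*, left out, chr19:44835420-44835479): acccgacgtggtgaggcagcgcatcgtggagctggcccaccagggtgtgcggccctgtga
The first of these probes was well above background on 4 of 4 spots in every channel. The second was well above background on 2 spots in the treated channel of both arrays, and on 1 and 3 spots in the control channel of replicates 1 and 2.

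Both arrays shared 1 slide and 1 scan. In the 4 channels, 68.6% to 70.7% of spots stood well above background, the median spot intensity was 307 to 680, and 0 spots were saturated. On the log2 scale of treated over control, 20119 genes were tested, and 123 (0.611%) were higher and 232 (1.15%) lower at a false discovery rate (FDR) of 0.05 in limma. *Apcdd1* and *Nkd1*, feedback genes of the WNT pathway, were lower by a log2 change of -1.27 ± 0.03 and -1.31 ± 0.20 (SD, n = 2 arrays). All 10 markers of ureteric mesenchyme and all 12 of bud and duct epithelium were measured above background. The same held for all 10 markers of kidney stroma and all 10 of endothelium and blood, so detection alone does not identify the tissue.

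Of the 8 regulators, 1 was higher at FDR 0.05 and none lower, against 0.611% and 1.15% of all genes. At an unadjusted p under 0.05 in limma, 2 were lower (*Osr1* and *Wt1*) and 1 was higher (*Meox1*). Of all 20119 genes tested, 954 were lower and 1745 higher at this threshold, which is also the background for the unadjusted counts of other lists below. *Meox1*, a homeobox gene, rose by 0.96 on the log2 scale. *Osr1* missed the threshold by a small margin, at a log2 change of -0.56. The other 6 did not pass, and for 4 of them the arrays gave opposite directions. *Six2* and *Sall1* had the largest differences between the arrays among the 8, with a log2 ratio above 0 on replicate 1 and below 0 on replicate 2. Because whole explants were profiled, fewer cells of a type and less RNA per cell cannot be told apart for any of these genes.

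**Figure D1:**
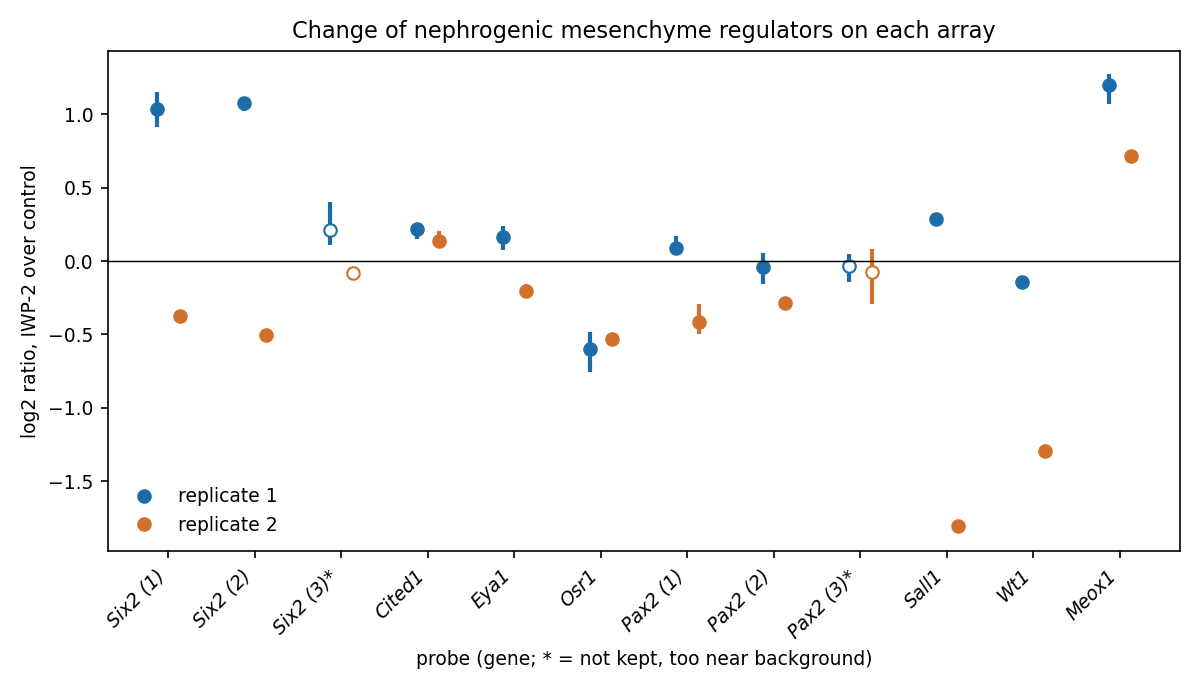
Log2 ratio of IWP-2-treated over control on the vertical axis for each of the 12 probes, on replicate 1 (blue) and replicate 2 (orange). Points are means over the spots of a probe, bars reach from the lowest to the highest spot, and open points with an asterisk were not kept. *Meox1* lies above 0 and *Osr1* below 0 on both arrays, while *Six2* and *Sall1* lie on opposite sides of 0.

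SIX2 is the homeodomain factor that keeps nephron progenitors undifferentiated. The processed intensity of its brighter probe (chr17:86083634-86083693, minus strand) reached 1911 in the treated against 914 in the control pool of replicate 1, and 1600 in the treated against 2103 in the control pool of replicate 2. Thus the control pool was the lowest of the 4 pools on replicate 1 and the highest on replicate 2, and the treated pools lay between them. The log2 ratios of 1.03 and -0.38 correspond to a 2.05-fold higher and a 1.30-fold lower level, with a mean of 0.33 ± 1.00 (SD, n = 2) and an adjusted p of 0.808 in limma. A second *Six2* probe (chr17:86083986-86084045) gave log2 ratios of 1.08 and -0.51, so both kept probes had the same opposing directions. The third probe (chr17:86082307-86082366), made to another transcript record, was not well above background on any spot in any channel. Spots of the brighter probe had an SD of 0.10 on replicate 1 and 0.03 on replicate 2, against a difference of 1.41 between the arrays.

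SALL1, a zinc finger protein, is needed for the bud to invade the mesenchyme. Its probe (chr8:91551278-91551337, minus strand) had a processed intensity of 397 in the treated and 328 in the control pool of replicate 1. On replicate 2 these pools had 163 and 607. The lowest and the highest pool thus lay on the same array, and the treated and control pools overlapped. The log2 ratios were 0.29 and -1.81, the second of them a 3.50-fold lower level in the treated pool. With a mean of -0.76 ± 1.48 (SD, n = 2) and an adjusted p of 0.566 in limma, *Sall1* did not pass. The SD between its spots was 0.01 on replicate 1 and 0.02 on replicate 2, and the arrays differed by 2.09. Across all genes tested, the SD between the arrays had a median of 0.11 and a 90th percentile of 0.30, and those of *Sall1*, *Six2* and *Wt1* lay at its percentiles 99.99, 99.8 and 99.7.

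*Wt1*, which codes for a zinc finger regulator of progenitors and of the mesothelium, was lower on both arrays but by unequal amounts. Its probe (chr2:105013656-105013715, plus strand) had a processed intensity of 1753 in the treated and 1923 in the control pool of replicate 1, and 936 in the treated and 2337 in the control pool of replicate 2. Both treated pools were below both control pools, and the treated pool of replicate 2 stood apart from the other 3. The log2 ratios were -0.14 and -1.29 (a 1.10-fold and a 2.45-fold lower level), with a mean of -0.72 ± 0.81 (SD, n = 2) and an adjusted p of 0.266 in limma.

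OSR1 acts early, in the intermediate mesoderm that forms kidney and ureter. Its probe (chr12:9587390-9587449, plus strand) had a processed intensity of 1106 in the treated and 1686 in the control pool of replicate 1, and 1369 in the treated and 1985 in the control pool of replicate 2. Both treated pools lay below both control pools, with a gap between them. The log2 ratios were -0.60 and -0.53, with a mean of -0.56 ± 0.05 (SD, n = 2; SE of the fit 0.10). The adjusted p was 0.0503 over all genes tested and 0.0412 in the limma fit over all 26947 kept probes, so its call depends on which of these is used.

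MEOX1 is known from the somites and was listed among the regulators by the rule. Its probe (chr11:101738847-101738906, minus strand) had a processed intensity of 444 in the treated and 183 in the control pool of replicate 1, and 398 in the treated and 238 in the control pool of replicate 2. Both treated pools lay above both control pools. The rise was 2.30-fold on replicate 1 and 1.64-fold on replicate 2, or 0.96 ± 0.34 on the log2 scale (SD, n = 2; SE of the fit 0.14), with an adjusted p of 0.0286 in limma. It was lost under several other ways of processing, among them the processed intensities of the scanner software without a floor (1.01, adjusted p = 0.0683 in limma) and a test of all genes without a filter on dim probes (adjusted p = 0.0892). Of 10 other markers of somite and axial mesenchyme, 7 were tested, with a median of 0.06, and 0 passed FDR 0.05 in limma while 2 (*Fst* and *Tcf15*) had an unadjusted p under 0.05. Their medians were 0.13 on replicate 1 and -0.12 on replicate 2. Of the 7, 3 were higher on replicate 1 and lower on replicate 2, against 18.7% of all genes tested. *Meox2*, the paralog of *Meox1*, had log2 ratios of 0.99 and -0.19 (adjusted p = 0.653), and *Myf5*, *Pax1* and *Pax9* were not tested because they were too close to background.

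The remaining 3 regulators had log2 ratios between -0.41 and 0.22 and did not pass FDR 0.05. *Cited1*, a transcriptional co-activator of the progenitors (chrX:99442776-99442835, minus strand), had a processed intensity of 3454 and 2990 in the treated and control pools of replicate 1, and 2819 and 2577 in those of replicate 2. The treated pool was the higher on both arrays, by log2 ratios of 0.22 and 0.14 (mean 0.18 ± 0.06, adjusted p = 0.559 in limma), but the ratio of replicate 2 was -0.08 when each array was centred on its median in place of loess, and the pools overlapped. *Eya1*, the co-activator and phosphatase that works with SIX2 (chr1:14159982-14160041, minus strand), had 8254 and 7076 in the treated and control pools of replicate 1, and 6896 and 8345 in those of replicate 2. Its log2 ratios were 0.16 and -0.21, with a mean of -0.02 ± 0.26 and an adjusted p of 0.988, and its pools overlapped. The only *Eya1* probe ends in a long repeat of G and T. Whether other RNAs with such a repeat add to its signal was not tested, which limits its level and its directions.

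*Pax2*, the paired box gene of both mesenchyme and bud, was measured close to the lower end of the intensity range. The probe in use had a processed intensity of 96.8 in the treated and 87.6 in the control pool of replicate 1, and 74.0 in the treated and 104 in the control pool of replicate 2. The pools overlapped. Log2 ratios of 0.09 and -0.41 gave a mean of -0.16 ± 0.36 (SD, n = 2) with an adjusted p of 0.794 in limma. A second kept probe (chr19:44871124-44871183) had log2 ratios of -0.04 and -0.28, but its processed intensities were at or next to the floor of 15 that was set here, so that its direction on replicate 1 and that of the first probe differed at a level close to background.

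**Figure D2:**
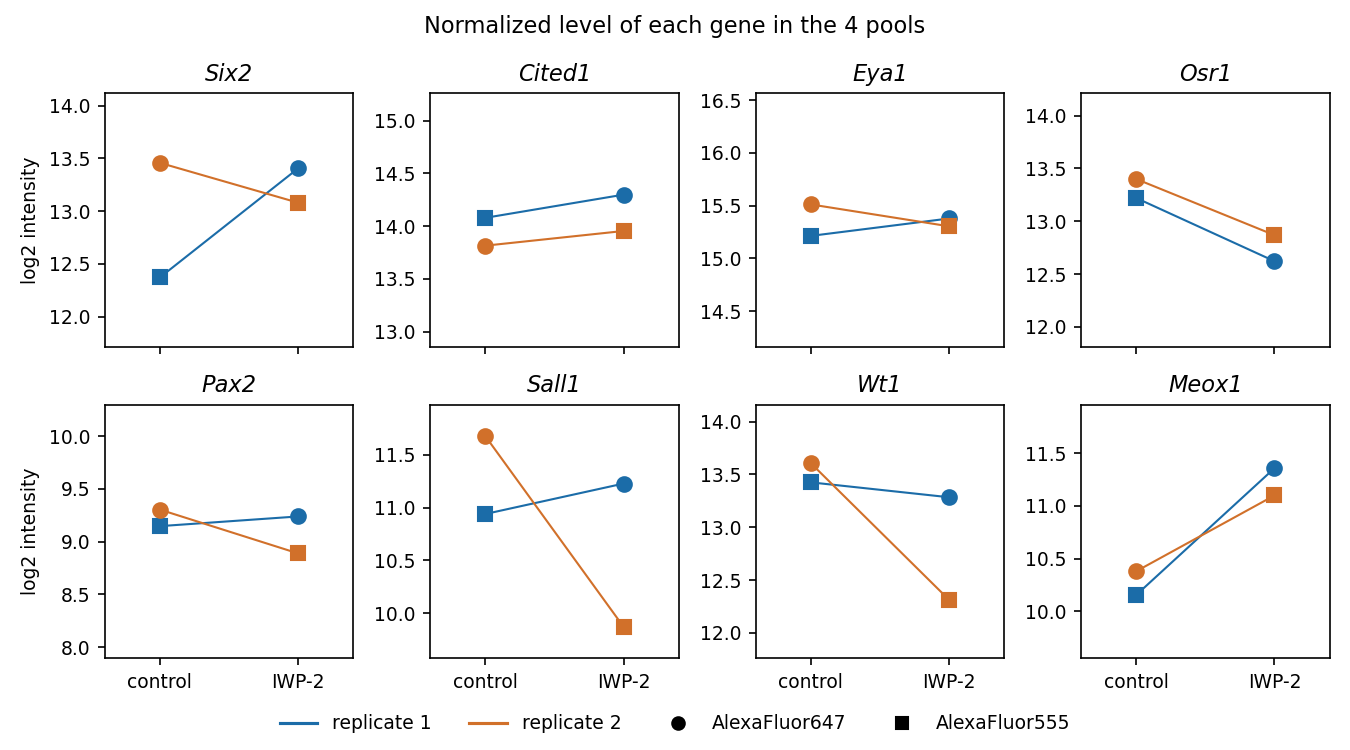
Normalized log2 intensity (vertical axis, own range in each panel) of the kept, brightest probe of each gene in the control and IWP-2 pools. Lines join the 2 pools of an array (blue, replicate 1; orange, replicate 2), circles are AlexaFluor647 and squares AlexaFluor555; treated pools lie above control pools for *Meox1* and below them for *Osr1* and *Wt1*, and overlap with them for the other 5.

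In total, 4 of the 8 genes had the same direction on both arrays, *Cited1* and *Meox1* upwards and *Osr1* and *Wt1* downwards. The share over all genes tested was 56%. All of the other 4, *Six2*, *Eya1*, *Pax2* and *Sall1*, were higher on replicate 1 and lower on replicate 2, and none the other way round; 18.7% of all genes tested had this order. The log2 ratios of the 8 genes had a median of 0.19 on replicate 1 and -0.40 on replicate 2, where the medians over all genes were -0.01 and 0.02. Without any normalization the arrays were shifted by 0.92 and -0.89 in the median of all genes, and none of the 8 genes had the same direction on both. Such a shift sets opposite directions for genes with smaller changes, so this count is not particular to the 8 genes.

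Levels were also compared over the 4 pools after a normalization of the channels between arrays. Treated and control pools did not overlap for 3 of the 8 genes, which was the case for 37.6% of all genes tested. The gap was 0.72 for *Meox1*, 0.35 for *Osr1* and 0.14 for *Wt1* on the log2 scale. For *Six2*, the control pools differed by 1.09 and the treated pools by 0.32, while for *Sall1* the treated pools differed by 1.36 and the control pools by 0.74. The treated pools of *Wt1* differed by 0.97 and its control pools by 0.18.

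A log2 ratio that is positive on replicate 1 and negative on replicate 2 also follows the dye, since the pool with AlexaFluor647 was the higher on both arrays. Each array had its own pools and 1 dye orientation, so that the dye and a difference between the pairs of pools cannot be told apart. As a background, the same limma fit was run for the change toward AlexaFluor647. It called 0 genes of 20119 (0%) at FDR 0.05, and 438 genes had an unadjusted p under 0.05. The change toward AlexaFluor647 was 1.05 for *Sall1*, 0.71 for *Six2* (adjusted p = 1.00 in limma, 0.0352 before adjustment) and 0.58 for *Wt1*, and between -0.03 and 0.25 for the other 5 genes.

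**Figure D3:**
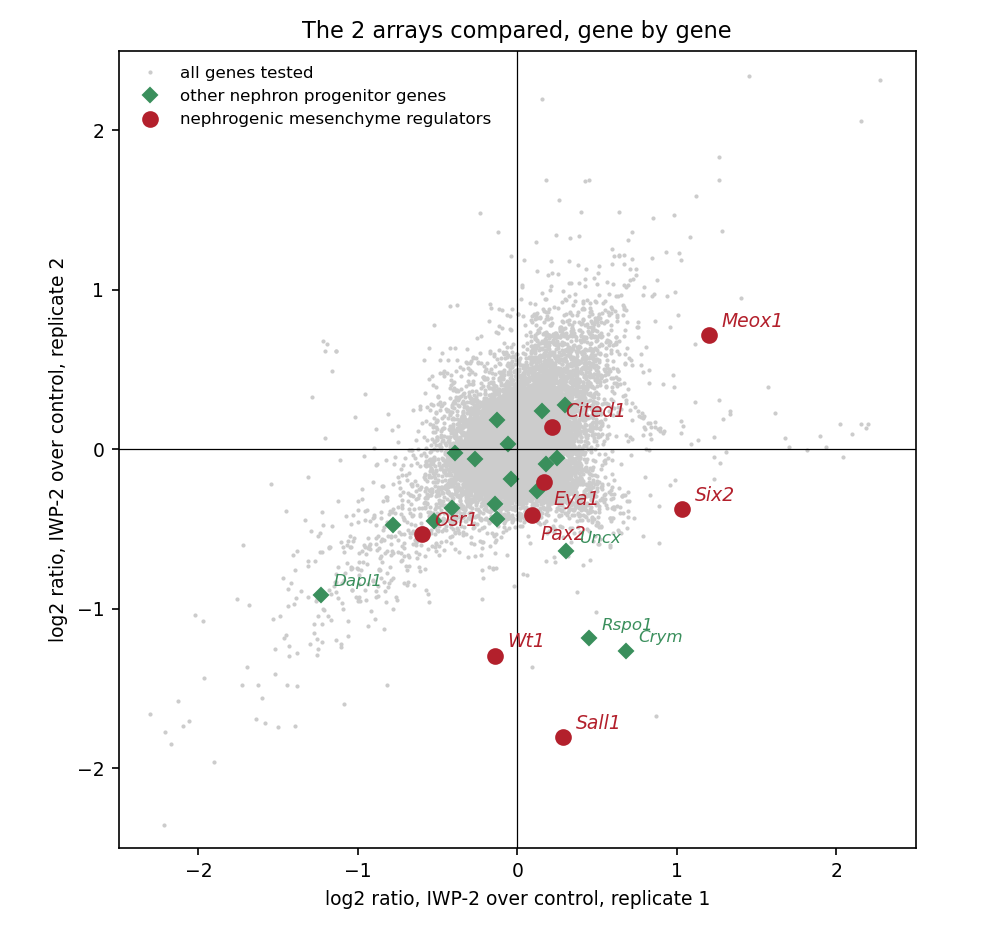
Log2 ratio of IWP-2-treated over control on replicate 1 (horizontal axis) against replicate 2 (vertical axis) for all genes tested (grey), the 8 regulators (red) and 19 other nephron progenitor genes (green); 12 genes lie outside the axes. *Six2*, *Sall1*, *Crym* and *Rspo1* lie to the right of and below the cloud of all genes, whose Pearson correlation between arrays was 0.47 across genes, which are not independent replicates.

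Using the fit over all kept probes, 2 of the 10 probes of the regulators passed FDR 0.05, those of *Meox1* (adjusted p = 0.0168) and *Osr1*, compared with 2.05% of all probes. A second criterion, modelled on the cut-offs that the study applied to intensity and fold change and without a test, required both arrays to change by a factor of 2 or more in 1 direction, with a processed intensity of 100 or more. The intensity was read in the brighter channel, a choice made here. It passed 61 of 14550 bright genes (0.419%), 50 lower and 11 higher. None of the 7 bright regulators passed. *Six2* and *Meox1* reached this fold change on replicate 1 alone, *Sall1* and *Wt1* on replicate 2 alone, and *Meox1* passed when the fold change was set to 1.5.

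Other genes of nephron progenitors were compared to see whether they shared these patterns. Of 20 such genes, 19 were tested, and *Fgf20* was too close to background. None was higher and 1 was lower at FDR 0.05, namely *Dapl1*, a marker of progenitors, with -1.07 ± 0.23 (adjusted p = 0.0121 in limma), while 1 was higher and 5 were lower at an unadjusted p under 0.05. Of the 19, 9 were lower and 2 higher on both arrays, against 5541 and 5727 of the 20119 genes tested. Another 6 were higher on replicate 1 and lower on replicate 2, an order found for 18.7% of all genes tested, and 2 had the reverse order. *Crym*, a progenitor gene for a thyroid hormone-binding protein, had log2 ratios of 0.68 and -1.26, and *Rspo1*, which codes for an enhancer of WNT signaling, 0.45 and -1.18. *Uncx*, a homeobox gene, had 0.31 and -0.64. *Gdnf*, the ligand that attracts the bud, and *Kif26b*, a kinesin gene of the mesenchyme, were lower on both arrays, at -0.39 (adjusted p = 0.135) and -0.63 (adjusted p = 0.0572) on average. The median of the list was -0.17 over both arrays, against -0.09 for the 8 regulators and 0.00 over all genes tested.

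Of 10 early nephron genes, which mark the epithelium made from the progenitors, *Osr2* fell by 1.02 on the log2 scale (adjusted p = 0.0322 in limma) and none rose at FDR 0.05, with a median of 0.07. The medians of this list were 0.15 on replicate 1 and -0.05 on replicate 2. On both arrays, 5 of the 10 were higher and 4 lower, against 5727 and 5541 of the 20119 genes tested. At an unadjusted p under 0.05 in limma, 3 of the 10 were higher and 3 lower (*Osr2*, *Jag1* and *Wnt4*). The higher ones were *Bmp2*, a BMP ligand, with log2 ratios of 0.33 and 0.86 (adjusted p = 0.119), *Dll1*, a Notch ligand, with 0.51 and 0.35 (adjusted p = 0.119), and *Lhx1*, at 0.35 on average (adjusted p = 0.180). *Wnt4*, the signal that drives this conversion, was at -0.25 (adjusted p = 0.343) and *Pax8* at 0.19 (adjusted p = 0.520). The stroma around the progenitors had 1 of 10 markers lower, *Tcf21* (-0.77, adjusted p = 0.0247), and its defining gene *Foxd1* had log2 ratios of 0.89 and -0.36. Thus *Foxd1* had the same order as *Six2*, but it was the only 1 of the 10 stroma markers to do so, against 18.7% of all genes tested. The arrays gave the same direction for 7 of the 10, and 2 had the reverse order. At FDR 0.05 in limma, 0 of 10 stroma markers were higher, and their median was -0.11. At an unadjusted p under 0.05, 1 was higher (*Meis1*) and 3 were lower (*Tcf21*, *Ntn1* and *Fat4*). The calls of *Osr2* and *Tcf21* were both lost with processed intensities without a floor and with centring on the median. The part that unequal amounts of kidney tissue in the pools had in these values was not tested.

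Lists for other cells moved by different amounts. All 10 markers of ureteric mesenchyme were lower on both arrays, with a median of -0.81, and 6 of them fell at FDR 0.05, among them *Foxf1* (-1.57) and *Tbx18* (-1.03). All 10 markers of endothelium and blood were higher on both arrays, with a median of 0.49 and log2 ratios of 0.11 to 0.62 on replicate 1 and 0.20 to 0.91 on replicate 2, and *Kdr* and *Cldn5* rose at FDR 0.05. Both of these calls were lost without background correction, with processed intensities, with centring on the median and without normalization. Of 12 markers of bud and duct epithelium, a tissue in which *Pax2* is also active, *Calb1* rose (0.86, adjusted p = 0.0172), and the list's medians were 0.13 and 0.19 on replicates 1 and 2. On both arrays, 6 of the 12 were higher and 2 lower, against 5727 and 5541 of the 20119 genes tested. At an unadjusted p under 0.05 in limma, 4 were higher and 1 was lower, *Wnt9b* (-0.45, adjusted p = 0.0914). Of 10 markers of mesothelium and gonad, where *Wt1* is also active, 8 were tested and 0 passed FDR 0.05 in limma, with 1 (*Emx2*) at an unadjusted p under 0.05. Their medians were -0.07 on replicate 1 and 0.23 on replicate 2, and the part of any of these cells in the values of the regulators was not tested.

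**Figure D4:**
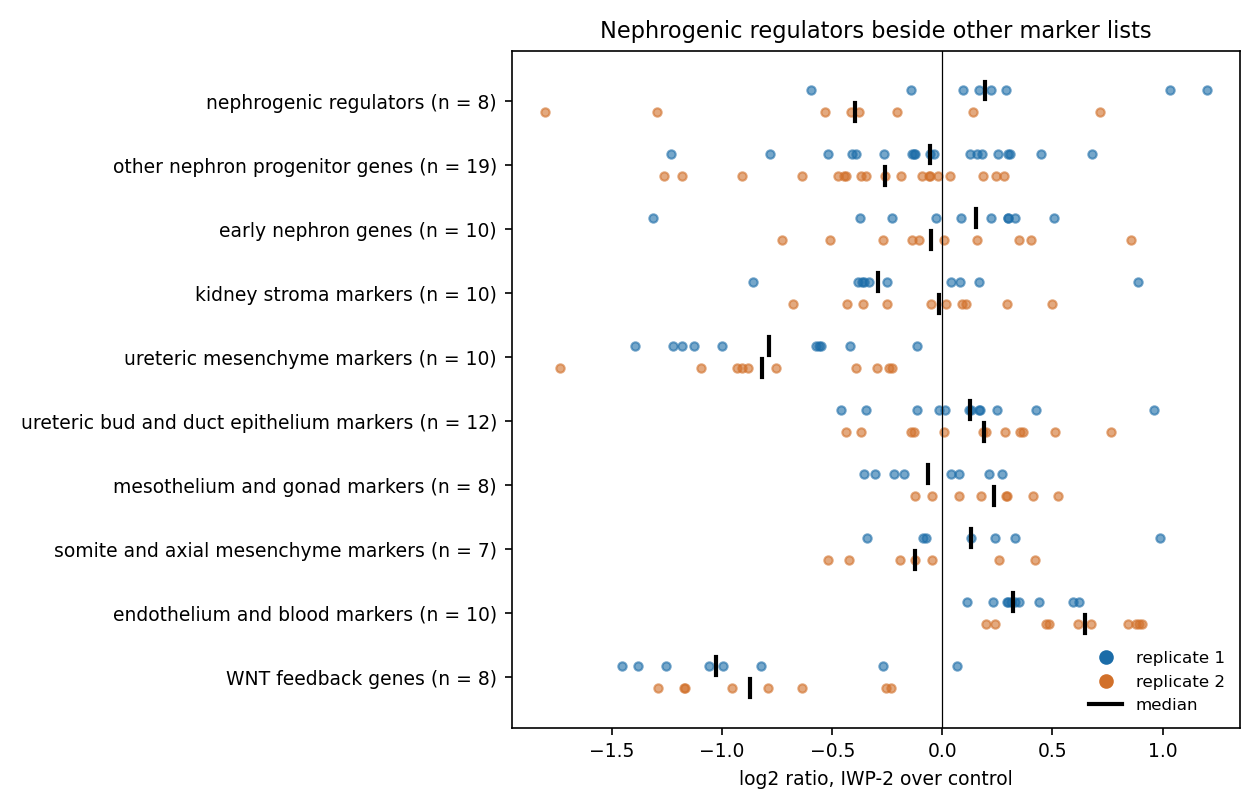
Log2 ratio of IWP-2-treated over control (horizontal axis) of every tested gene in the 8 regulators and 9 other lists, on replicate 1 (blue) and replicate 2 (orange), with the median of each list and array as a black bar. The medians of the regulators lie on opposite sides of 0 (0.19 and -0.40). So do those of early nephron genes (0.15 and -0.05), somite and axial markers (0.13 and -0.12) and mesothelium and gonad markers (-0.07 and 0.23). The medians of ureteric mesenchyme (-0.79 and -0.82) and WNT feedback genes (-1.03 and -0.87) lie below 0 on both arrays.

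WNT feedback genes, which report on the pathway itself, were lower in 5 of 8 at FDR 0.05 (*Nkd1*, *Apcdd1*, *Sp5*, *Tcf7* and *Lef1*), with a median of -0.95. *Axin2* had log2 ratios of -1.38 and -0.64 and an adjusted p of 0.0502 in limma. The arrays had the same direction for 7 of these 8 genes, and for 4 of the 8 regulators.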

How the data were processed

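RNA of ureter pools was measured on 2 two-colour oligonucleotide arrays (design 084956, probes of 60 bases printed 4 times). Per the file headers, Feature Extraction 12.2.0.7 wrote the deposited mean intensity and local background of every spot for each channel. The submitters' processing notes name version 10.7.3.1. The files also hold a processed intensity, corrected for background and dye by that software. Other deposited columns flag outlier, saturated and well-above-background spots, and a deposited series table gives another unit, a rounded signed fold change of treated over control.

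Version 4.3.3 of R was used, with version 1.17.8 of its data.table package and version 3.58.1 of limma. Mean intensities were corrected by normexp (offset 50) and log2 ratios normalized by loess within arrays. Spots marked as outliers were dropped and the others averaged per probe. Probes were kept where the treated channel of both arrays, or the control channel of both, had a share above 0.5 of spots well above background. The brightest kept probe stood for a gene. The functions lmFit and eBayes were applied to ratios turned to treated over control, with 1 residual degree of freedom, and p-values were adjusted by Benjamini-Hochberg over all genes or, separately, all probes. Each ratio pairs the pools of 1 array. Levels per pool were taken after Aquantile normalization between arrays. Processed intensities are geometric means over spots, with a floor of 15.

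All 8 genes are named with every probe. Of the other lists, genes past FDR 0.05 and at most 5 others are given with values, and some more by name only. Members and lists were chosen with earlier results of these data known. The alternatives covered background, normalization, filters, probes, prior, model, series table and leaving out an array. The procedure was tested on simulated data. The number of arrays limits the precision.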

Additional observations from a re-analysis of the deposited data

How the results depend on the processing

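*Meox1* kept the direction of its mean but no longer passed FDR 0.05 with processed intensities (1.01, adjusted p = 0.401 in limma, at a floor of 15, and 0.0683 without a floor, chosen after seeing the data), centring on the median (0.93, 0.280), no normalization (0.97, 1.00), no filter on dim probes (0.96, 0.0892), separate channels with a term for the dye (0.96, 0.197) and the series table (1.04, 0.421). *Osr1* passed in only 4 of 13 alternatives. They were the mean over probes (-0.56, adjusted p = 0.0317 in limma), a trend and robust prior (-0.56, 0.0209), outlier spots without weight in loess (-0.56, 0.0450, chosen after seeing the data) and the series table (-0.58, 0.0422). With the mean over probes its value equals that of the main fit. Where it did not pass, the adjusted p in limma was, for example, 0.396 with processed intensities at the floor, 0.566 with centring on the median and 0.320 with separate channels. Of 104 values of the 8 genes over the 13 alternatives that use both arrays, 103 kept the sign of their mean and 1 was 0 (*Eya1*, series table). The filters on dim probes, the prior and the separate-channel model left the mean of each of the 8 genes unchanged. Their signs were thus fixed in advance, and the count does not measure how robust the directions are. With 1 array left out, the value is the ratio of the other array. Its sign therefore turned, by construction, for the same 4 of the 8 genes whose arrays gave opposite directions. The values were -0.38 to 1.03 for *Six2*, -1.81 to 0.29 for *Sall1*, -0.21 to 0.16 for *Eya1* and -0.41 to 0.09 for *Pax2*. The change of *Osr1* toward AlexaFluor647 turned from -0.03 to 0.11 with centring on the median. Without normalization 0 of the 8 genes had the same direction on both arrays, but the medians of all genes were then 0.92 and -0.89. This shift gives opposite directions to genes with smaller changes, so the count is not a result about the 8 genes.

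Over all genes, the counts lower and higher were 36 and 7 with centring on the median, 98 and 21 without the filter on dim probes, 1323 and 1037 in the series table and 55 and 9 at FDR 0.01. Higher genes alone moved to 74 without background correction, 75 with processed intensities without a floor, 224 with the mean over probes and 226 with the trend and robust prior. Counts were 0 and 0 in limma with processed intensities at the floor (1108 and 1356 at an unadjusted p under 0.05), without normalization (16 and 3) and in the separate-channel model (882 and 1361). The filter on fold change passed 27 lower and 7 higher genes where both channels had to reach 100, 165 and 73 where a fold change of 1.5 was enough, and, leaving out 1 array, 63 to 127 lower and 35 to 62 higher genes. With centring on the median, 1 of 10 ureteric mesenchyme markers and 1 of 8 WNT feedback genes were lower at FDR 0.05, and the calls of *Dapl1* and *Calb1* were lost. The causes were not tested. With 1 array left there is no test, and 2 pairs of pools limit what can be called.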
